A study of Mus musculus with 6 samples.

Results

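The genes described here encode the erythropoietin receptor and the signalling chain closest to it. They are the receptor gene Epor, the kinase gene Jak2, the transcription factor genes Stat5a and Stat5b, the feedback and target genes Cish, Socs2, Socs3 and Pim1, the kinase gene Lyn and the phosphatase gene Ptpn6. They were chosen by symbol as 1 pathway, with the RPKM values of these libraries, in which Epor was lower in Tfam KO, already known. All 10 were found in a table of 23119 rows, each on 1 row of its own. RNA was sequenced from mouse fetal liver erythroid cells at embryonic day 13.5, sorted as positive for CD71, the transferrin receptor, and for Ter119, a red cell antigen. There were 3 libraries labelled Tfam KO and 3 labelled Tfam WT, all of strain C57BL/6. Tfam encodes a factor that packages and transcribes mitochondrial DNA. The labels name no Cre driver, allele, litter or batch and do not say whether each replicate came from another embryo. Each p-value therefore reflects the library-to-library spread alone, which could be technical. Erythroid Cre lines include one whose recombinase is inserted into the Epor gene itself, so the driver bears on how Epor can be read. Which driver was used is not given in the sources used here.

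Erythropoietin is the hormone that keeps erythroid progenitors alive and dividing. Its receptor has no kinase activity and carries Jak2 on its inner tail. When the hormone binds, Jak2 phosphorylates the receptor, and Stat5 proteins dock there, are phosphorylated and enter the nucleus to switch on target genes. Among these targets are Cish and Socs proteins, which bind back to the receptor or kinase and dampen the signal. In fetal liver this pathway is needed to make red cells, and demand for it is greatest before the last stages of maturation.

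Promoter sequences are shown for the receptor gene and for the feedback gene Cish, because Epor separated the groups and Cish, a Stat5 target, did not. They come from RefSeq on build GRCm38.p6, whereas the deposited values were made on mm9, so these coordinates belong to the sequences only. Each window runs from 250 bases before to 50 after an annotated start, 8 of the 10 genes had one, and Lyn and Socs2 did not. The Epor window lies at chr9:21963527-21963826 on the minus strand and is shown whole, with capitals marking the match to the GATA motif AGATAA read on the other strand. The last 150 bases of the Cish window lie at chr9:107296559-107296708 on the plus strand, with capitals marking both matches to the Stat5 motif TTCNNNGAA.
Epor: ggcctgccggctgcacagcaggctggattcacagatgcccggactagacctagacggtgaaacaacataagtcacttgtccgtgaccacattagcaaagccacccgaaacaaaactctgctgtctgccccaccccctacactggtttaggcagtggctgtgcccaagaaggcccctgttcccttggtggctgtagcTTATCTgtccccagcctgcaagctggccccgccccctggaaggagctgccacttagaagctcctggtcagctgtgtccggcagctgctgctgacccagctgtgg
Cish: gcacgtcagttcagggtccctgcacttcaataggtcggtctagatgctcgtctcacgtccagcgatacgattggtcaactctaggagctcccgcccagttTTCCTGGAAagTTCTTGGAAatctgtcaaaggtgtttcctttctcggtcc
The Epor match begins 54 bases before the annotated start. AGATAA, searched on both strands, occurs in 11.2% of the 32851 promoter windows of this length. A second GATA motif, TGATAA, was searched in the same way. It had no match in the Epor window and occurs in 9.05% of the windows. The motif TTCNNNGAA reads the same on both strands and occurs at least once in 8.30% of the windows and at least 2 times in 0.457%. In Cish the matches begin at bases 1 and 12 after the start, and the Socs3 window holds 1 match, TTCTTAGAA, which begins 154 bases before it. The windows of Epor, Jak2, Stat5a, Stat5b, Pim1 and Ptpn6 held no match to the Stat5 motif, which says only that these letters are not in those windows.

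Levels are given in RPKM, reads scaled to transcript length and to the mapped reads of a library, so they can be compared between genes. WT replicate 3 stood apart from the other libraries. Its RPKM sum was 815524, against 424377 to 535933 in the KO libraries and 423263 to 461927 in the other WT libraries. Rows were placed in 5 bins by transcript length. In WT replicate 3 the shortest bin lay a median of 0.68 above the 6-library mean in log2 units, and the longest bin lay at -0.52. Results are therefore also given without that library. Tfam was at 5.92, 7.22 and 6.25 RPKM in the KO libraries and 7.22, 8.44 and 5.72 RPKM in the WT libraries, so its gene-level value does not separate the groups. All 14 erythroid markers found were tested, and their summed level was 12317 to 16828 RPKM in KO and 12716 to 18776 RPKM in WT. Markers of other cells were also present. Hepatocyte markers summed to 14.5 to 134 RPKM in KO and 38.1 to 83.6 RPKM in WT, neutrophil markers to 28.5 to 73.6 RPKM in KO and 38.5 to 172 RPKM in WT, and megakaryocyte markers to 26.3 to 84.1 RPKM in KO and 39.8 to 73.8 RPKM in WT. The 4 tested megakaryocyte markers had a median log2 fold change of -0.23, and of -0.54 without WT replicate 3, when all 4 were fitted lower. The 6 tested neutrophil markers were all fitted lower, but 4 were fitted higher and 2 lower without WT replicate 3. Of 6 tested hepatocyte markers 3 were fitted higher and 3 lower, against 1 and 5 without that library. Of the erythroid markers 7 were fitted higher and 7 lower, against 8 and 6 without it. Of all tested rows 53.0% were fitted lower, or 55.0% without WT replicate 3. Mast cell and endothelial markers summed to at most 1.45 RPKM in any KO library and 1.10 RPKM in any WT library, and lymphocyte markers to at most 0.0892 RPKM in KO and 0.232 RPKM in WT. The part of these cells in the results was not tested. Read depth is not known in absolute terms. Steps between low values put the KO libraries at 93.6%, 83.8% and 79.8% of the depth of WT replicate 2 and WT replicate 1 at 88.6%, and did not resolve WT replicate 3. The value of KO replicate 1 is weak, since its commonest step held 3.46% of the rows compared. That share was 10.2% to 19.8% in KO replicates 2 and 3 and WT replicate 1, and 1.91% in WT replicate 3.

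Epor, the receptor gene, was lower in every KO library, and no other gene of the set separated the groups. It was at 112, 97.7 and 128 RPKM in KO replicates 1, 2 and 3, against 219.6, 215 and 389 RPKM in WT replicates 1, 2 and 3. The highest KO library was below the lowest WT library, the KO libraries lay close together, and WT replicate 3 was far above the other WT libraries. The means were 113 ± 15.3 RPKM in KO and 274 ± 99.2 RPKM in WT (SD, n = 3 each), a ratio of 0.410. The WT mean was 217 RPKM and the ratio 0.518 without WT replicate 3. Fewer cells of a type and less RNA per cell cannot be told apart in such bulk samples. Within the pairs of equal replicate number the KO level was 0.508, 0.455 and 0.330 times the WT level.

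**Figure D1:**
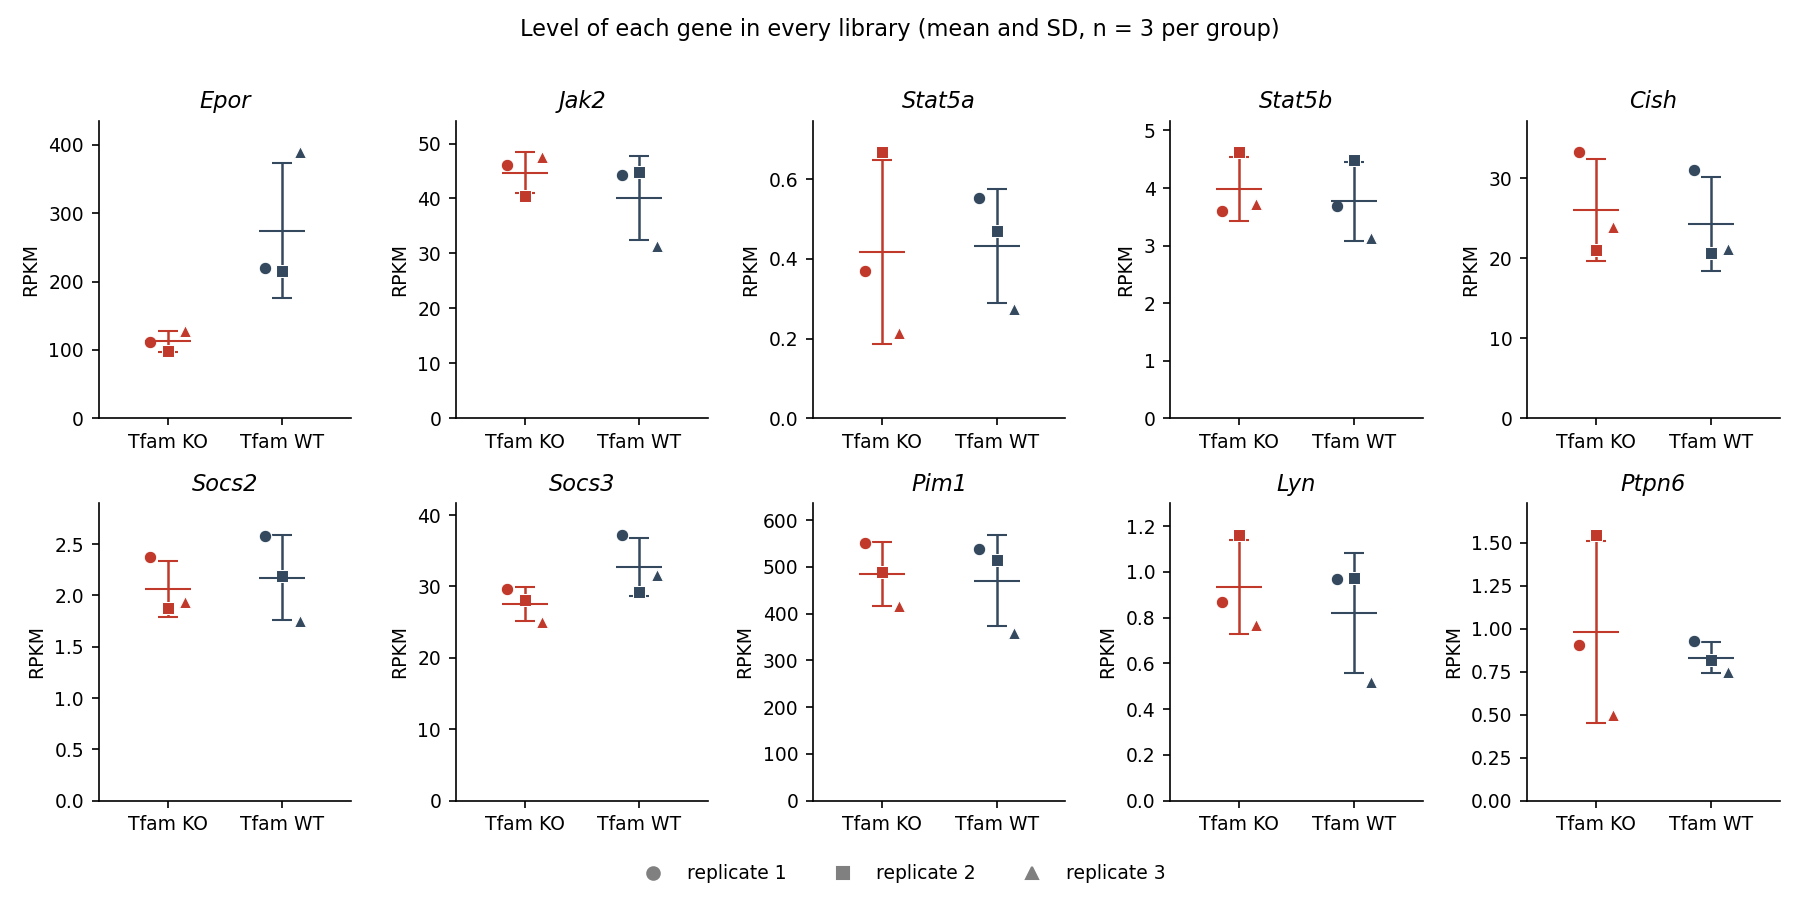
Level of each of the 10 genes in RPKM, with Tfam KO libraries on the left and Tfam WT libraries on the right of each panel. Points are single libraries and bars the mean and SD (n = 3 per group). Epor is lower in all 3 KO libraries, and the groups overlap in each of the other 9 panels.

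The fitted log2 fold change of Epor, on the log2(RPKM + 1) scale, was -1.23 (SE 0.28, 95% interval -1.90 to -0.56). Epor was known from an earlier analysis of these data to differ, so this value is a description and not independent evidence. An exact two-sided permutation test of the Epor group means gave p = 0.1, the smallest value it can give for 3 against 3 libraries. The limma test across 8302 rows gave Epor an adjusted p of 0.909, which was also the lowest adjusted p of any row, so Epor did not pass. No row did (0.0% called), while 100 rows had an unadjusted p under 0.05, 62 higher and 38 lower in KO. By unadjusted p Epor ranked 8 of the 8302 rows, and 7 without WT replicate 3. The groups were separated in this direction in 2.36% of all tested rows. Without WT replicate 3 that share was 5.9%, and Epor remained in it, while 1 row passed the limma test (0.012%), Snord67.

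The difference in Epor was also measured without the library that stood apart and with transcript length taken into account. Its log2 fold change without WT replicate 3 was -0.95 (SE 0.17, 95% interval -1.35 to -0.56). With the trend on transcript length removed from each library, Epor levels were 124, 104 and 125 RPKM in KO and 228, 231 and 305 RPKM in WT. On that scale the groups again did not overlap, WT replicate 3 lay closer to its group, and the log2 fold change was -1.10 (SE 0.15). Leaving out each library in turn gave values of -1.38 to -0.95. Since the groups did not overlap, the direction of these values was fixed in advance. The adjusted p stayed above 0.05 in each of these fits, and was 0.0157 only when limma weighted the libraries by their spread, which gave WT replicate 1 a weight of 21.4, WT replicate 2 a weight of 0.565 and WT replicate 3 a weight of 0.0859.

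Among abundant transcripts Epor lay near the lower end. Of 741 rows with a mean of at least 100 RPKM, 2 had a lower fitted value, Sprr2a1 (-1.85) and Cmss1 (-1.37), both named after their values were seen. The median of the 741 rows was -0.22. Without WT replicate 3 the median was 0.03, Cmss1 was at -0.45, and Sprr2a1 (-1.82) alone lay below Epor. Ranked by level among the 23094 rows that name a gene, Epor stood at 596, 652 and 613 in the KO libraries and at 347, 329 and 319 in the WT libraries. These ranks do not depend on how a library is scaled, although they still carry its length trend, and they separate the groups with no overlap. They restate the Epor levels, which were known to differ, and add no support to the difference.

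**Figure D2:**
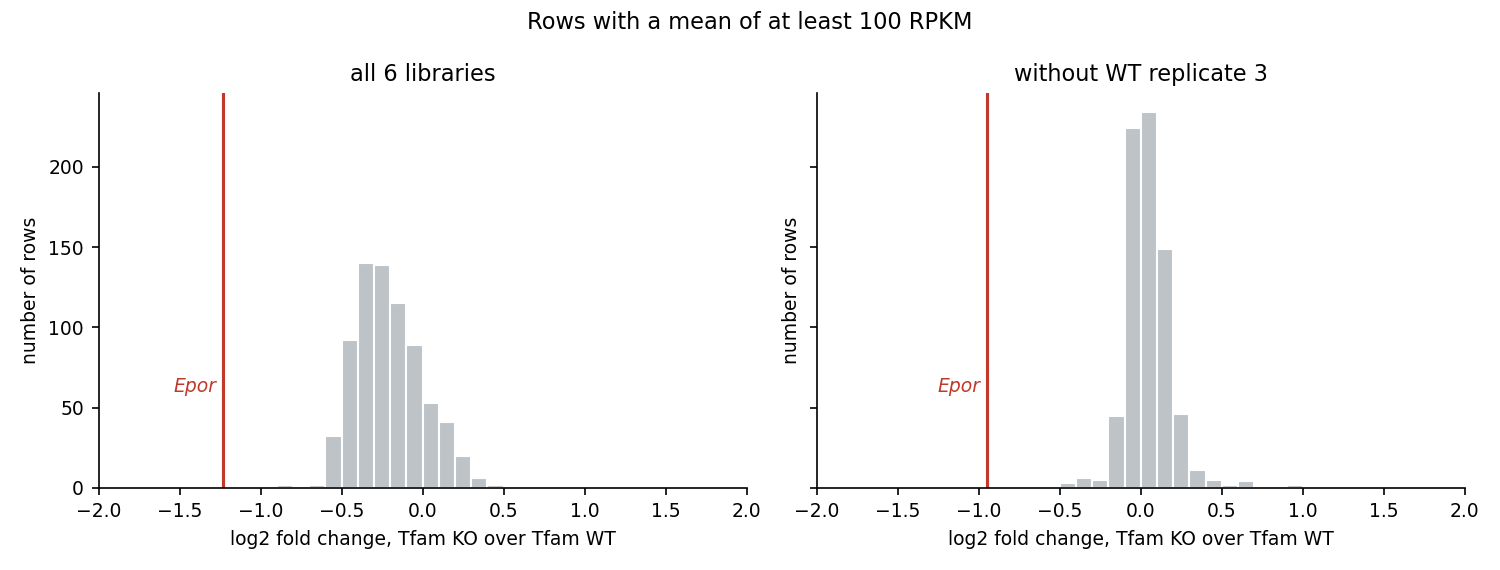
Histogram of fitted log2 fold changes, Tfam KO over Tfam WT, for the 741 rows with a mean of at least 100 RPKM, with all 6 libraries on the left and without WT replicate 3 on the right. The vertical axis counts rows, and the red line marks Epor at -1.23 and -0.95, with 2 rows below it on the left and 1 on the right.

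Jak2, the kinase bound to the receptor, overlapped between the groups. It was at 46.1, 40.5 and 47.5 RPKM in KO, against 44.3, 44.8 and 31.3 RPKM in WT. WT replicate 3 was the low library, and the other 5 libraries lay between 40.5 and 47.5 RPKM. The log2 fold change was 0.17 (95% interval -0.29 to 0.62, adjusted p = 0.909 by limma) and 0.0012 without WT replicate 3 (95% interval -0.31 to 0.31). With the length trend removed all 6 libraries lay between 39.7 and 45.9 RPKM.

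The Stat5 genes carry the signal to the nucleus, and Stat5b was the more abundant in every library. Stat5b was at 3.61, 4.62 and 3.72 RPKM in KO, against 3.69, 4.49 and 3.13 RPKM in WT. The groups overlapped, with a log2 fold change of 0.07 (95% interval -0.33 to 0.46), or -0.03 without WT replicate 3. Stat5a was at 0.368, 0.667 and 0.215 RPKM in KO, against 0.553, 0.471 and 0.274 RPKM in WT. Its mean over the 6 libraries was below the filter of 1 RPKM, so it was not tested, and its values spread widely within both groups. Stat5a made up 9.12 ± 3.59% of the summed Stat5 level in KO and 10.2 ± 2.57% in WT (SD, n = 3 each). The neighbouring Stat5 genes are close relatives in sequence, and how the authors' counting split shared reads between them is not given.

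Cish, an SH2-domain feedback protein and a classical Stat5 target, overlapped between groups. It was at 33.2, 21.0 and 23.9 RPKM in KO, against 31.1, 20.6 and 21.2 RPKM in WT. Replicate 1 was the highest library of both groups, and the groups overlapped. The log2 fold change was 0.09 (95% interval -0.46 to 0.65, adjusted p = 0.918 by limma), and 0.01 without WT replicate 3. Within the numbered pairs the KO value was 1.07, 1.02 and 1.13 times the WT value. With the replicate number as a block the SE was 0.12, against 0.24 without it, and the 95% interval -0.22 to 0.41, which still includes 0. Equal levels are not shown.

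The other feedback genes also overlapped. Socs3, which binds Jak2 and the receptor and blocks the kinase, was at 29.7, 28.1 and 25.0 RPKM in KO, against 37.2, 29.3 and 31.6 RPKM in WT. Only KO replicate 1 lay above the lowest WT library, and within each numbered pair the KO value was the lower, at 0.798, 0.959 and 0.789 times the WT value. Its log2 fold change was -0.23 (SE 0.16, adjusted p = 0.909 by limma) and -0.25 without WT replicate 3, a difference that did not pass. Socs2, a relative that also limits growth hormone signalling, was at 2.38, 1.88 and 1.94 RPKM in KO, against 2.58, 2.19 and 1.75 RPKM in WT. Its log2 fold change was -0.05 (95% interval -0.43 to 0.34), and -0.14 without WT replicate 3.

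Pim1 encodes a survival kinase that Stat5 induces, and it was the most abundant transcript of the set. It was at 552, 488 and 416 RPKM in KO, against 539, 514 and 358 RPKM in WT. The order within both groups was the same, with replicate 1 highest and replicate 3 lowest. The log2 fold change was 0.06 (95% interval -0.56 to 0.68), and -0.13 without WT replicate 3.

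Lyn and Ptpn6 lay below the filter and were not tested. Lyn, a Src-family kinase that associates with the receptor, was at 0.868, 1.16 and 0.767 RPKM in KO, against 0.969, 0.975 and 0.517 RPKM in WT. Ptpn6 encodes the phosphatase SHP-1, which binds the activated receptor and removes phosphate from Jak2, and was at 0.907, 1.55 and 0.496 RPKM in KO, against 0.928, 0.819 and 0.750 RPKM in WT. The groups overlapped in both genes, and KO replicate 2 was the highest library of all. Both genes are also known from myeloid cells. Of 11 macrophage markers found, 7 were tested and all 7 had a lower fitted value (median -0.50, or -0.34 without WT replicate 3). Of all tested rows 53.0% were fitted lower, or 55.0% without that library. Over all 6 libraries the groups did not overlap in 4 of the 7, all lower in KO, where 2.36% of all tested rows lay that way. Without WT replicate 3 that share was 5.9%, and the markers were not counted again. Cd163 was listed at 0 in all libraries. The markers summed to 11.3, 17.8 and 8.62 RPKM in KO and 17.2, 17.0 and 33.2 RPKM in WT. Within the KO group the order of these sums was that of Lyn, Ptpn6 and Stat5a, whereas WT replicate 3 had the highest sum and the lowest WT value of all 3 genes. The part of other cell types in these levels was not tested.

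Among the 10 genes the groups overlapped in 9, with and without WT replicate 3, and Epor was the exception. In all tested rows the groups did not overlap in 4.54%, or in 11.3% without WT replicate 3. Since 1 of 10 genes cannot be told from these shares and Epor was known to differ, the count is a description only. Of the 7 genes that passed the filter, 4 were fitted higher and 3 lower, with a median of 0.06, while the median of all tested rows was -0.02 and 53.0% of them were fitted lower. Without WT replicate 3, 2 of the 7 were fitted higher and 5 lower, their median was -0.13, that of all rows -0.01, and 55.0% of all rows were fitted lower. WT replicate 3 held the highest level of Epor and the lowest of 5 others, Jak2, Stat5b, Socs2, Pim1 and Lyn. By mean level over the 6 libraries the order was Pim1 (478 RPKM), Epor (194), Jak2 (42.4), Socs3 (30.1), Cish (25.2), Stat5b (3.87), Socs2 (2.12), Ptpn6 (0.907), Lyn (0.876) and Stat5a (0.425). Compared within each library, Pim1 was above Epor in 5 of 6 libraries, Jak2 above Socs3 in 5, Socs3 above Cish in 5 and Ptpn6 above Lyn in 3. The other neighbours kept this order in all 6 libraries.

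**Figure D3:**
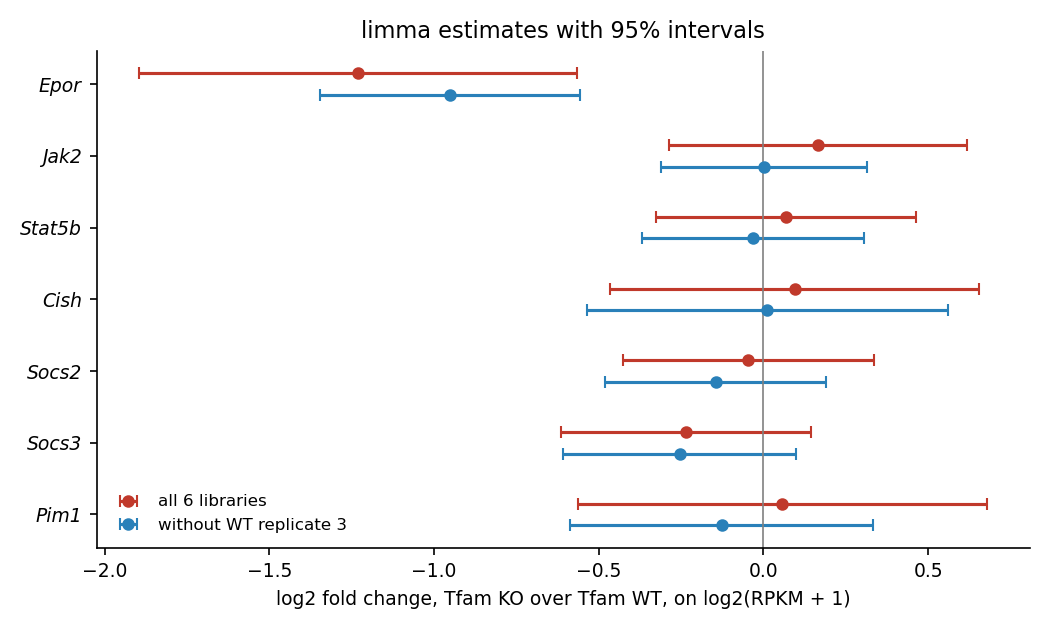
Fitted log2 fold changes, Tfam KO over Tfam WT, of the 7 genes that passed the filter, with 95% intervals, from all 6 libraries (red) and without WT replicate 3 (blue). The Epor intervals, -1.90 to -0.56 and -1.35 to -0.56, lie below 0, and those of the other 6 genes include 0. The intervals are not adjusted for the number of rows tested. Epor was known to differ and did not pass the limma test in either fit.

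Ratios between genes of 1 library do not depend on how that library was scaled, although they still carry its length trend. Epor per Jak2 was 2.42, 2.41 and 2.70 in KO and 4.96, 4.79 and 12.4 in WT. The KO ratios were close together and below every WT ratio. Epor per Pim1 was 0.202, 0.200 and 0.308 in KO and 0.407, 0.418 and 1.09 in WT, again with no overlap. Pim1 per Jak2, a ratio without the receptor, averaged 10.9 ± 1.88 in KO and 11.7 ± 0.422 in WT (SD, n = 3 each), and the groups overlapped. Cish per Epor was 0.298, 0.215 and 0.186 in KO and 0.142, 0.0960 and 0.0544 in WT, so each KO library held more Cish transcript per receptor transcript than any WT library. Socs3 per Epor was 0.249 ± 0.0485 in KO and 0.129 ± 0.0445 in WT, and Pim1 per Epor 4.39 ± 0.997 in KO and 1.92 ± 0.868 in WT (SD, n = 3 each), both with no overlap. Since Epor is part of these ratios and was known to differ, they were not tested.

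**Figure D4:**
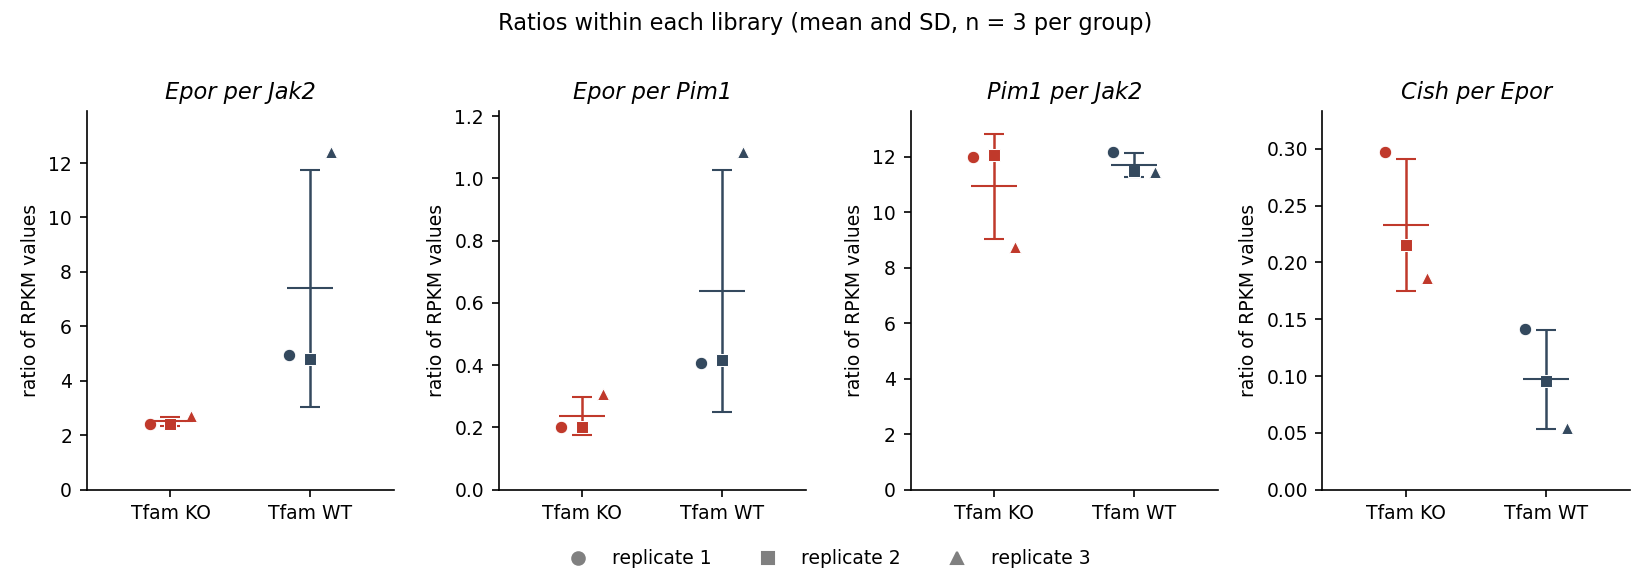
Ratios of RPKM values within each library, with Tfam KO libraries on the left and Tfam WT libraries on the right of each panel. Points are libraries and bars the mean and SD (n = 3 per group). Epor per Jak2 is 2.41 to 2.70 in KO and 4.79 to 12.4 in WT, whereas Pim1 per Jak2 overlaps.

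The genes were also compared by their profile over the libraries. Likeness was measured as the root mean square difference of log2(RPKM + 1) over the 6 libraries, after each gene's own mean was subtracted. The closest pair of the set was Stat5b and Lyn, at 0.079, and the distances of Epor to the other 9 genes were 0.61 (Socs3) to 0.83 (Jak2). These distances restate the spread of Epor about its own mean, 0.68, against 0.13 to 0.27 in the other 9 genes, and add no support to its difference. The added 1 shrinks the spread of Stat5a, Lyn and Ptpn6, which lay below the filter, and with it the distances among low genes. In the whole table, of 5373 rows with a mean of at least 5 RPKM and a single gene name, the 5 closest to Epor were the histone genes Hist1h1d (0.22), Hist1h3i (0.27), Hist1h1a (0.29), Hist1h2bp (0.30) and Hist1h2bm (0.30). The median distance was 0.64. In all 5, as in Epor, WT replicate 3 was the highest library. Without that library, an alternative chosen after seeing the data, Rab8b (0.16), Cacna1g (0.17) and Tmod3 (0.19) came first, and Hist1h2bm (0.20) and Hist1h1d (0.20) stood at ranks 4 and 5. The closest to Cish over the 6 libraries were 4930523C07Rik (0.085), Slfn14-ps (0.099), Klhl21 (0.11), Nfe2l2 (0.11) and Zfp869 (0.11), among 5373 rows with a median distance of 0.37.

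Other genes of the pathway were read from 6 lists, which gave 73 tested rows when each row was counted once and the 10 genes above were left out. Of these 0 passed the limma test, with 41 at a higher and 32 at a lower fitted value, a median of 0.05, and 2 with an unadjusted p under 0.05. Leaving out WT replicate 3 gave 31 at a higher and 42 at a lower fitted value, with a median of -0.01. Over all 6 libraries the groups did not overlap in 2 of the 73 rows, Trib3 and Cdkn1a, both higher in KO. In all tested rows 2.18% lay that way. Without WT replicate 3 that share was 5.42%, and the rows of the lists were not counted again.

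Among adaptors and branches below the receptor 24 of 29 genes found were tested, 15 with a higher and 9 with a lower fitted value, against 8 and 16 without WT replicate 3. The 3 with the widest differences were Irs2 (0.63), an adaptor also of the insulin receptor, Hras (-0.49, listed as Hras1) and Map2k2 (-0.32), both of the Ras and MAP kinase branch. Without WT replicate 3 they were at 0.07, -0.04 and 0.10 on the same log2 scale. Hras was at 41.5, 38.7 and 63.7 RPKM in KO, against 49.6, 46.6 and 125 RPKM in WT. WT replicate 3 was far above the other libraries. Irs2 was at 14.8, 9.68 and 6.99 RPKM in KO, against 10.7, 8.57 and 2.27 RPKM in WT, where WT replicate 3 was the lowest.

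Of negative regulators 15 of 21 genes were tested, 9 with a higher and 6 with a lower fitted value, against 6 and 9 without WT replicate 3. Socs4 (0.33), Dok1 (-0.23) and Pias4 (-0.18) were the widest among those with a mean of at least 5 RPKM, and without WT replicate 3 they were at -0.18, 0.04 and -0.10. The adaptor Sh2b3, or Lnk, which restrains Jak2, averaged 2.85 ± 0.528 RPKM in KO and 2.43 ± 0.799 RPKM in WT (SD, n = 3 each). Of other Jak, Stat, Pim and Src-family genes 10 of 17 were tested, 7 with a higher and 3 with a lower fitted value, against 4 and 6 without WT replicate 3. Jak1 (0.24), the row shared by Pim2 and Otud5 (-0.22) and Fyn (0.20) were the widest by the same rule. Jak1 was at 29.6, 22.5 and 27.7 RPKM in KO, against 24.3, 24.3 and 18.6 RPKM in WT, with overlap.

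Of 14 other cytokine receptors, 1 passed the filter, the interferon receptor chain Ifngr2 (-0.38), which averaged 3.45 ± 0.579 RPKM in KO and 4.81 ± 0.815 RPKM in WT (SD, n = 3 each). Among 19 other erythropoietin or Stat5 targets 16 were tested, 9 with a higher and 7 with a lower fitted value, the same counts as without WT replicate 3. Trib3, a pseudokinase also induced in the integrated stress response, was at 7.22, 7.80 and 8.37 RPKM in KO, against 1.85, 3.75 and 3.52 RPKM in WT, with a log2 fold change of 1.16 (SE 0.22, adjusted p = 0.909 by limma). Cdkn1a, which encodes the cell cycle inhibitor p21, averaged 3.61 ± 0.444 RPKM in KO and 1.79 ± 0.625 RPKM in WT (SD, n = 3 each), with a log2 fold change of 0.74. Gadd45g (-0.63), a growth arrest gene, and Fos (-0.24), an immediate early gene, were the next widest of those with a mean of at least 5 RPKM, at -0.13 and 0.38 without WT replicate 3. Bcl2l1, which encodes the survival protein Bcl-xL, averaged 314 ± 56.0 RPKM in KO and 382 ± 148 RPKM in WT. Fam132b, which encodes the iron hormone erythroferrone, averaged 13.2 ± 3.24 RPKM in KO and 11.6 ± 3.20 RPKM in WT (SD, n = 3 each for both genes). None of these passed.

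Factors known to act on Epor transcription overlapped between groups. Of 8 genes 7 were tested, 1 with a higher and 6 with a lower fitted value and a median of -0.11, and without WT replicate 3 there were 4 and 3 and the median was 0.01. Gata1, whose motif is marked in the Epor sequence above, was at 185, 165 and 246 RPKM in KO, against 213, 197 and 335 RPKM in WT, and its log2 fold change was -0.30, or -0.06 without WT replicate 3. The row shared by Klf1 and Dnase2a was at -0.41 and, without that library, 0.03, and Sp1 at 0.26 and -0.19.

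**Figure D5:**
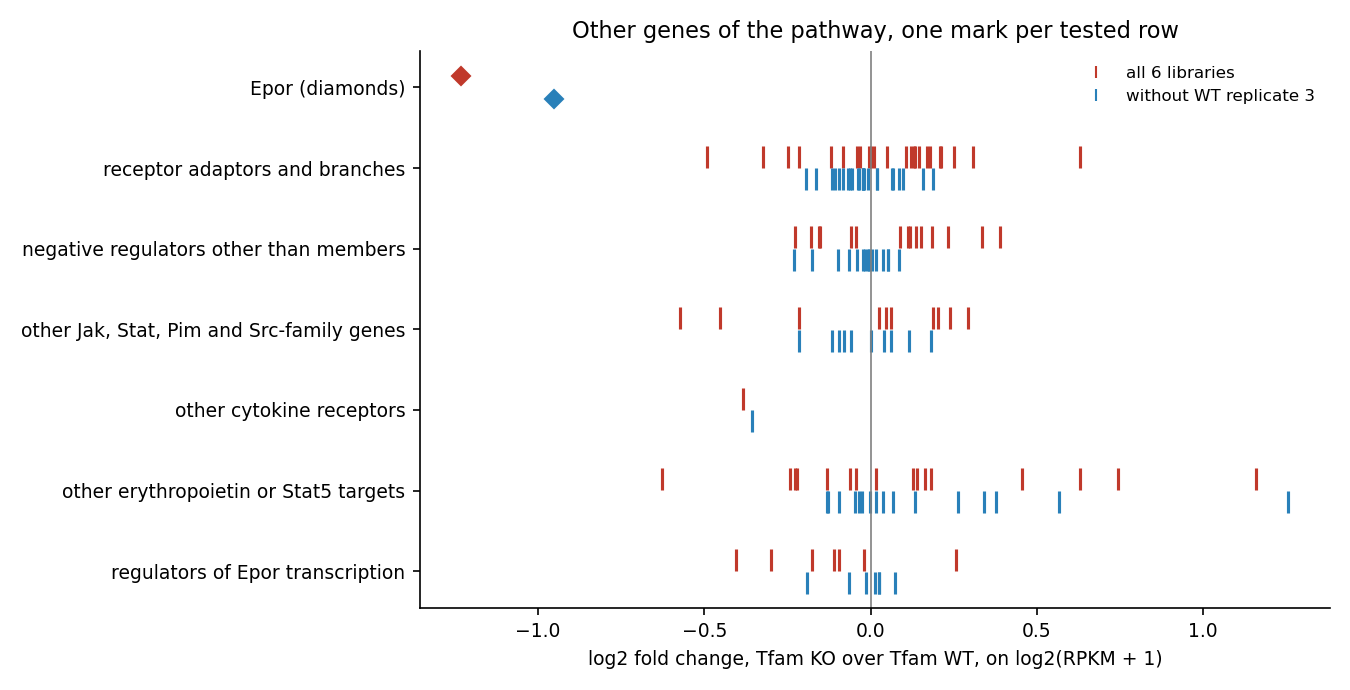
Fitted log2 fold changes, Tfam KO over Tfam WT, of every tested row in the 6 pathway lists, from all 6 libraries (red) and without WT replicate 3 (blue), with Epor as diamonds. Without WT replicate 3 Epor is at -0.95 and Trib3, the mark farthest to the right, at 1.26.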

How the data were processed

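The authors deposited 1 table of RPKM values, 1 column per library. TopHat and Cufflinks with build mm9 were used, per the submitters' processing notes; tool versions, the annotation and strandedness are not given there. Of its 23119 rows, 25 carry a number as a name and were left out. Rows with a mean of at least 1 RPKM were tested (8302, of which 334 join several names) by limma 3.58.1 (R 4.3.3) after taking log2(RPKM + 1), using a variance trend without a block, and p-values were adjusted by Benjamini-Hochberg over all 8302. Lengths for the length trend came from GENCODE transcripts and covered 99.5% of tested rows. The added 1 shrinks changes of low genes. A listed 0 can be a failed estimate. Deviations from the group means correlated at 0.46, 0.17 and 0.53 between libraries numbered 1, 2 and 3, each above 0.1, so the numbers were taken as pairs, from this check and not from a label. The hint is weak, since KO replicate 1 correlated with WT replicate 2 at 0.40, above the 0.17 of the pair numbered 2. It was read from values that still carry the length trend of each library, so it cannot show a pairing. Low values were read as steps below 0.05 RPKM, in bins of 0.01 on the log2 scale. The 10 genes, the lists and the rule for named genes (all 10, the 3 widest tested members of each list with a mean of at least 5 RPKM, and the 5 genes most like Epor and Cish) were chosen with earlier results of these data known. Other genes were named after their values were seen. Alternatives changed the pseudocount, filter, scaling, trend, weights, block and libraries. Figures used Python 3.11.15 and matplotlib 3.10.9.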

Additional observations from a re-analysis of the deposited data

How the results depend on the processing

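Epor was lower in KO under all 16 alternatives tried, with log2 fold changes of -1.38 to -0.95. It was known to differ and its groups did not overlap, so this direction was largely fixed in advance and adds no support. Epor passed the limma test only with library weights (-1.01, adjusted p = 0.0157), the next lowest adjusted p being 0.243, with quantile normalization. With the replicate block its adjusted p was 0.715, or 0.311 with the length trend also removed, and the block changed no call. It left 0 rows past the threshold, with 324 at an unadjusted p under 0.05. Over all rows, 60 passed with library weights, Epor among them. When 1 library was left out 0 to 2 passed (2 without KO replicate 2, 1 without KO replicate 3 and 1 without WT replicate 3), and none of these few was a gene of the set. Directions of the small differences changed. With library weights Jak2 was at -0.0032, Cish at -0.20 and Pim1 at -0.094. With the length trend removed, with or without the replicate block, Stat5b was at -0.070 and Socs2 at 0.033. Leaving out 1 library gave -0.032 to 0.17 for Stat5b, -0.088 to 0.28 for Cish, -0.14 to 0.046 for Socs2 and -0.13 to 0.17 for Pim1. Socs3 stayed lower in all 16, at -0.38 to -0.14. The cause of these changes was not tested. The number of libraries and the unknown depth limit what can be said of Stat5a, Lyn and Ptpn6, whose levels lay near or below 1 RPKM.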

Other observations

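Some low transcripts of the pathway, named after their values were seen, lay below the filter and were not tested. Spry1, which encodes an inhibitor of receptor kinase signalling, was at 1.05, 0.953 and 0.548 RPKM in KO, against 0.265, 0.282 and 0.180 RPKM in WT. The lowest KO library was above the highest WT library. In all tested rows 2.18% lay that way, and the share among rows below the filter was not counted. Csf2rb2, a receptor chain for interleukin 3 in mouse, was at 1.16, 0.781 and 0.491 RPKM in KO, against 0.339, 0.421 and 0.457 RPKM in WT, also with no overlap. Its neighbour Csf2rb, the shared beta chain, was at 1.62, 1.08 and 0.589 RPKM in KO, against 0.497, 0.708 and 0.397 RPKM in WT, and the groups overlapped. These neighbouring genes are near-identical over much of their length, and how the authors' counting split their reads is not given, so their values are uncertain.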
